A study of Mus musculus with 20 samples.

Results

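The genes described here are 10 components of the Notch pathway in mouse DC2 cells. They comprise the ligands Jag1, Jag2 and Dll1, the receptors Notch1, Notch2 and Notch3, and the target genes Hes1, Hey1, Heyl and Nrarp. They were found by gene symbol in both deposited abundance tables, where each symbol occurred once, and make up 10 of the 21509 protein-coding genes listed. DC2 cells are an immortalized line derived from principal cells of the distal caput of the mouse epididymis, the duct in which sperm mature. In the first experiment, 6 libraries came from cells under fluid shear stress (flow, 1 dyn/cm2 acting for 3 h) and 6 from cells in the static condition. In the second, 4 libraries came from cells given Ift88 siRNA and 4 from cells given control siRNA. Cells of the flow experiment had first been starved of serum in microfluidic channels, which promotes growth of primary cilia. For siRNA-treated cells the study's methods also describe low-serum medium, in the timeline of its calcium experiments. Ift88 encodes an intraflagellar transport protein required to build the primary cilium. The labels of the siRNA libraries do not mention flow, and according to the study's methods both siRNA groups were exposed to it. The labels name no genetic change in any group, and all cells come from the same line. For flow replicate 6 the labels disagree, since its title and description say flow and its treatment entry says static, and it was kept in the flow group.

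Notch signaling passes between touching cells. A ligand of the Jagged or Delta-like type on one cell binds a Notch receptor on its neighbour, the receptor is cleaved first by ADAM proteases and then by the gamma-secretase complex, and its intracellular part enters the nucleus. There it binds the DNA-binding protein RBPJ and raises transcription of genes such as the Hes and Hey repressors and Nrarp, which in turn limits the signal. Because the receptor is activated by cleavage, its mRNA level does not show how much of it is active. The comparisons below ask how the mRNA of these components stood with and without flow, and with and without depletion of a ciliary gene under flow.

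Jag1 was the member called in the siRNA comparison, so part of its promoter is shown here. The gene (ENSMUSG00000027276) lies on chromosome 2 from 137081456 to 137116644 on the minus strand of GRCm38 in GENCODE M21. The stretch below is RefSeq sequence of GRCm38.p6, chr2:137116645-137116770, minus strand, and lies upstream of the gene's start in both annotations. It holds no exon or intron of Jag1. Capitals mark matches on either strand to CACGNG, a motif bound by Hes and Hey repressors.
Jag1 promoter, 126 bases, 5′ to 3′: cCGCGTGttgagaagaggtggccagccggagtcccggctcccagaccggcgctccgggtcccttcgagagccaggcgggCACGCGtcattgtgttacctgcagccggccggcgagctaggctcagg
The 2 matches stand at positions 2 to 7 and 80 to 85 of this stretch, counted from its 5′ end. RefSeq promoter windows, 250 bases before to 50 after each start, were matched for 7 of the 10 members, in 8 windows. Hes1, Hey1 and Heyl had no window, so Nrarp was the only target gene searched. CACGNG, searched on both strands, was found in 7 of these 8 windows, against 27.5% of all 32851 windows. GTGGGAA, the core letters of the RBPJ motif, was searched on both strands and was in 0 of the 8 windows, against 6.38% of all windows. The motifs did not overlap each other in these windows, and a match describes letters, not a bound site.

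Across the static libraries, 4 members carried most of the Notch mRNA. In TPM, a unit of abundance corrected for transcript length and scaled to the same total in each library, the mean levels were 23.6 ± 5.79 for Notch2, 10.7 ± 2.27 for Notch1, 8.80 ± 2.21 for Hes1 and 3.44 ± 1.15 for Jag1 (SD, n = 6). Notch2 stood above the others in every static library, whereas the ranges of Notch1 (7.79 to 14.4 TPM) and Hes1 (7.67 to 13.3 TPM) overlapped. Nrarp (1.64 ± 0.328 TPM), Notch3 (1.30 ± 0.525 TPM) and Jag2 (0.986 ± 0.668 TPM) came next, also with overlapping ranges. Dll1 was lower at 0.326 ± 0.301 TPM and Hey1 at 0.145 ± 0.0529 TPM, and Heyl was listed at 0 in all 12 flow and static libraries (n = 6 in each group).

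The same genes had other levels in the siRNA experiment. In the control siRNA libraries Jag1 reached 54.7 ± 5.90 TPM and Notch2 43.0 ± 9.13 TPM, with overlapping ranges. Notch1 followed at 7.08 ± 0.585 TPM and Hes1 at 2.24 ± 0.503 TPM (SD, n = 4). Jag1, the lowest of these 4 by mean in both flow and static cells, thus stood beside the most abundant receptor in the siRNA cells, and Hes1 stood below all flow and static libraries. The tables were made separately, so no test was run across them.

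**Figure D1:**
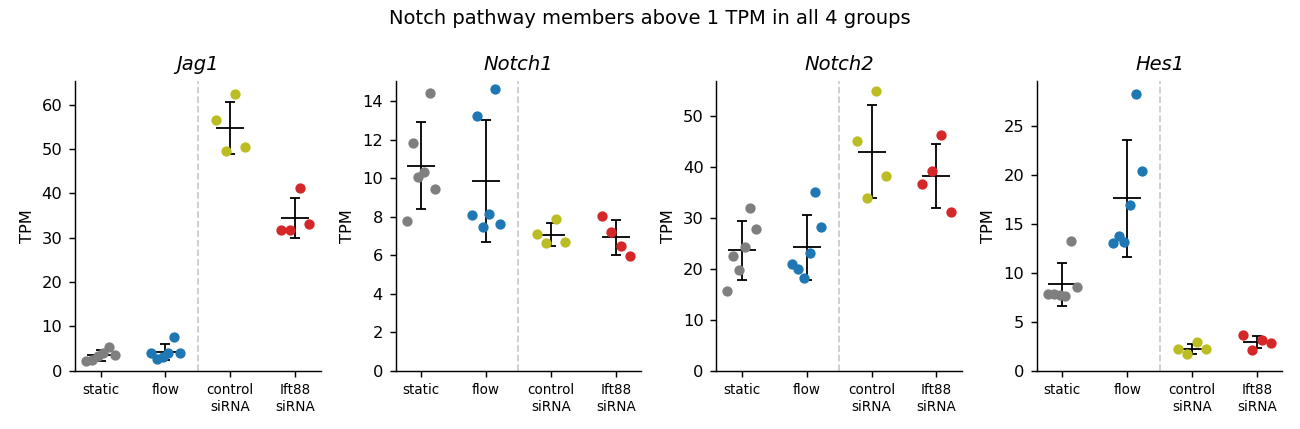
TPM (linear axis from 0) of Jag1, Notch1, Notch2 and Hes1 in each library by group; points are single libraries and bars give the mean ± SD (n = 6 flow, 6 static, 4 Ift88 siRNA, 4 control siRNA). Jag1 was between 2.15 and 7.66 TPM in the flow experiment and between 31.6 and 62.3 TPM in the siRNA experiment, where the 4 Ift88 siRNA libraries lie below the 4 control libraries.

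Jag1 encodes a transmembrane Notch ligand of the Jagged class. Under flow its level ran from 2.69 to 7.66 TPM (median 4.06), and in the static condition from 2.15 to 5.39 TPM (median 3.34). The groups overlapped, and the highest library of each group was replicate 5. Flow was higher than static in 5 of the 6 same-numbered pairs, with ratios from 0.938 to 1.91. The difference on the log2(TPM + 1) scale was 0.23 (SE 0.21, 95% interval -0.22 to 0.68), with an adjusted p of 0.998 by limma with Benjamini-Hochberg adjustment over the 11388 genes tested. A fit with a block for the replicate number, which takes up what same-numbered libraries share, gave an adjusted p of 0.491. The interval still holds both no change and a rise.

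In the siRNA experiment Jag1 fell. The 4 control libraries measured 56.5, 49.6, 62.3 and 50.5 TPM, and the 4 Ift88 siRNA libraries 31.6, 31.6, 41.2 and 33.1 TPM. Every Ift88 siRNA library was below every control library, and the group mean was 62.9% of control. Fewer cells of a type and less RNA per cell cannot be told apart in such bulk samples. The difference was -0.66 on the log2(TPM + 1) scale (SE 0.10, 95% interval -0.87 to -0.44), with an adjusted p of 0.0119 by limma over 11209 genes. A gene was called when the adjusted p was under 0.05 and the change over 1.5-fold. Of the 4 members tested, Jag1 alone was called, against 0.223% of all genes tested, and 0.0714% called lower. A replicate block also left Jag1 called, against 0.393% of genes. Without the minimum mean of 1 TPM that was set for the test, the difference was the same and the adjusted p was 0.0883, which is not a call. Groups that do not overlap were common here, at 2.79% of genes in the lower direction. Leaving out Ift88 siRNA replicate 2 gave an adjusted p of 0.0501 and leaving out control replicate 1 gave 0.0605, neither of them a call, and in the other 6 of 8 such fits Jag1 was called. Ift88 itself, the target of the siRNA, averaged 4.14 ± 0.0541 TPM in control libraries and 1.30 ± 0.326 TPM in Ift88 siRNA libraries (SD, n = 4). Its log2 difference was -1.17 (adjusted p 0.00212 by limma).

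The other ligands were scarce. Jag2, the second Jagged ligand, ran from 0.389 to 1.34 TPM under flow (median 0.834) and from 0.513 to 2.30 TPM in static cells (median 0.80). Dll1, a Delta-like ligand, ran from 0.0641 to 0.427 TPM under flow (median 0.214) and from 0.115 to 0.929 TPM in static cells (median 0.225). For both, the groups overlapped and the highest value was in static replicate 6. With siRNA, Jag2 measured 0.248, 0.337, 0.228 and 0.0722 TPM with Ift88 siRNA and 0.410, 0.385, 0.308 and 0.317 TPM with control siRNA, where 1 Ift88 siRNA library lay within the control range. Dll1 lay between 0.110 and 0.262 TPM with Ift88 siRNA and between 0.0981 and 0.185 TPM with control siRNA. Both genes had a mean under the minimum set for the test. Fitted without that minimum, Jag2 differed by -0.15 with Ift88 siRNA on the log2(TPM + 1) scale (SE 0.07, adjusted p 0.499 by limma).

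Of the summed TPM of 5 ligands (Jag1, Jag2, Dll1, Dll3 and Dll4), Jag1 made up between 59.5 and 85.1% under flow (median 76.3%) and between 46.7 and 77.9% in static cells (median 70.8%). In the siRNA experiment its share was between 97.5 and 98.5% with Ift88 siRNA and between 98.7 and 99.0% with control siRNA. Jag1 was thus the leading ligand in each group's median, and the fall of Jag1 with Ift88 siRNA left it far above the other ligands.

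**Figure D2:**
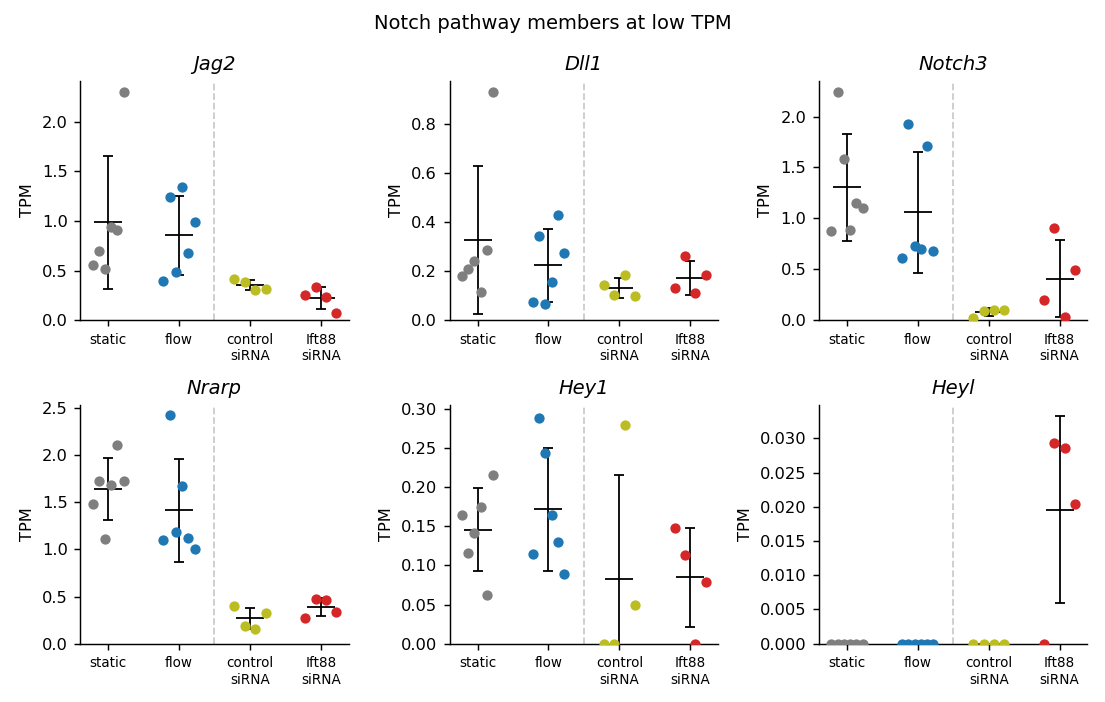
TPM (linear axes from 0, a separate scale for each gene) of Jag2, Dll1, Notch3, Hey1, Heyl and Nrarp in each library by group, with mean ± SD bars. Heyl is at 0 in all flow, static and control siRNA libraries, and the ranges of flow and static overlap for the other 5 genes.

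Among the receptors, Notch2 was the most abundant. It ran from 18.1 to 35.02 TPM under flow (median 21.96) and from 15.5 to 31.9 TPM in static cells (median 23.3), with nearly the same range in both groups. Flow was higher in 3 of the 6 pairs, and the difference was 0.03 on the log2(TPM + 1) scale (SE 0.18, 95% interval -0.34 to 0.41, adjusted p 0.998 by limma). With the block the interval narrowed to -0.14 to 0.21. Among the siRNA libraries Notch2 measured 36.5, 39.0, 46.2 and 31.1 TPM with Ift88 siRNA and 45.0, 33.9, 54.8 and 38.1 TPM with control siRNA. The groups overlapped, with a difference of -0.15 (SE 0.14, 95% interval -0.46 to 0.15, adjusted p 0.666 by limma).

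Notch1 ran from 7.46 to 14.6 TPM under flow (median 8.12) and from 7.79 to 14.4 TPM in static cells (median 10.2). The medians differed while the ranges were almost the same, and flow was higher in 3 of the 6 pairs. The difference was -0.13 on the log2(TPM + 1) scale (SE 0.18, 95% interval -0.51 to 0.26, adjusted p 0.998 by limma). With siRNA it measured 8.07, 7.19, 6.50 and 5.96 TPM with Ift88 siRNA and 7.12, 6.63, 7.90 and 6.68 TPM with control siRNA. The Ift88 siRNA range enclosed the control range, with a difference of -0.03 (SE 0.12, 95% interval -0.28 to 0.22, adjusted p 0.937 by limma).

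Notch3, a receptor best known from vascular smooth muscle, was low in all groups. It ran from 0.610 to 1.93 TPM under flow (median 0.715) and from 0.872 to 2.24 TPM in static cells (median 1.12), and static was higher in 5 of the 6 pairs. The groups overlapped, with a difference of -0.18 on the log2(TPM + 1) scale (SE 0.20, adjusted p 0.998 by limma). With siRNA, it measured 0.199, 0.901, 0.0319 and 0.492 TPM for Ift88 siRNA and 0.0156, 0.0881, 0.0970 and 0.0999 TPM for control siRNA. Of the 4 Ift88 siRNA libraries, 3 were above all controls and 1 was within their range. Fitted without the minimum, the difference was 0.35 (SE 0.16, adjusted p 0.512 by limma). Genes above 0 numbered 15713 to 16682 in the Ift88 siRNA libraries and 15292 to 15382 in the control libraries, so more genes were detected with Ift88 siRNA. The part of this in the Notch3 values was not tested.

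Of the summed TPM of the 4 Notch receptors, Notch2 made up a median of 67.9% under flow, 63.3% in static cells, 81.5% with Ift88 siRNA and 84.7% with control siRNA. Notch1 made up most of the rest, with medians of 27.1, 30.2, 15.3 and 14.1% in the same order. Notch3 and Notch4 together left little in any group, and the order of Notch2 above Notch1 held in each of the 20 libraries.

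Hes1 encodes a transcriptional repressor and is a direct Notch target that other signals also induce. The gene (ENSMUSG00000022528) lies on chromosome 16 from 30064384 to 30067796 on the plus strand of GRCm38. Under flow it ran from 13.0 to 28.2 TPM (median 15.3), and in static cells from 7.67 to 13.3 TPM (median 7.81). In the static condition 5 of the 6 libraries were between 7.67 and 8.52 TPM, and the remaining library, static replicate 5, was the only static library above any flow library. Its same-numbered flow library was also the highest of its group. Flow was higher in 6 of the 6 pairs, with ratios from 1.66 to 2.40, and the mean under flow (17.6 ± 5.95 TPM) was 2.00 times that of static cells (8.80 ± 2.21 TPM, SD, n = 6).

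The difference in Hes1 was 0.89 on the log2(TPM + 1) scale (SE 0.19, 95% interval 0.49 to 1.29). Without the block the adjusted p was 0.0952 by limma, short of a call. The study, which tested with DESeq2 at the same thresholds, names Hes1 among its genes changed by shear stress. The minimum was met by 6 of the 10 members in this table, and 0 of them were called, against 0.105% of all genes tested. At an unadjusted p under 0.05, Hes1 was the 1 member below that level, which 3.85% of all genes tested reached. With the replicate block, the SE was 0.09 and the adjusted p 0.00135, and Hes1 was called higher, against 0.597% of all genes. Hes1 was then the only member called, and the other 5 tested members had adjusted p from 0.491 to 0.900. Same-numbered flow and static libraries deviated together over all genes, so the numbers were taken as pairs, although replicate 3 correlated more with a library of another number (0.509) than with its own (0.425). Leaving out flow replicate 2 made Hes1 a call without the block (adjusted p 0.0357 by limma, against 0.667% of genes called higher). So did median-of-ratios scaling, against 0.246% of genes, and library weights, against 0.659%. Counting flow replicate 6 as static, after its treatment entry, gave a difference of 0.68 with an adjusted p of 1.00.

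**Figure D3:**
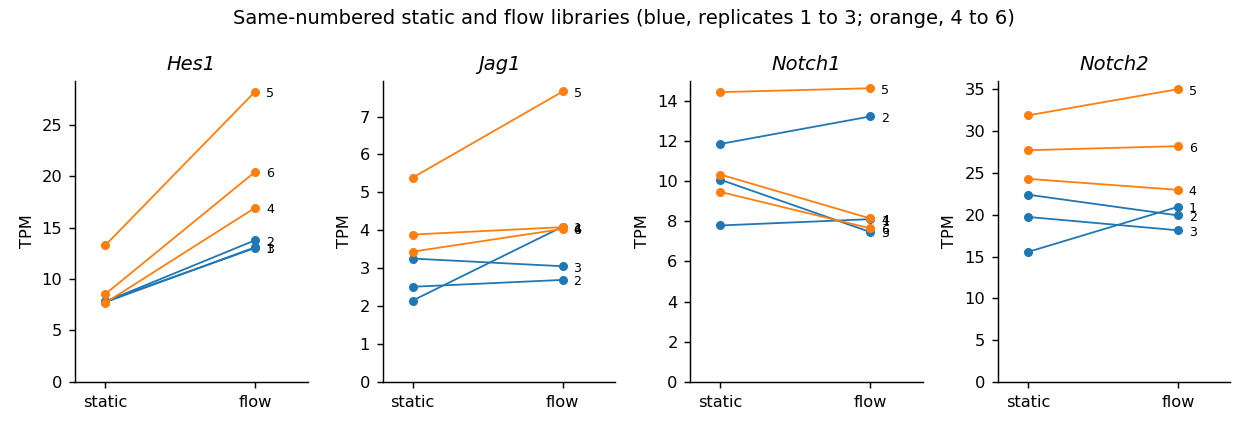
TPM of Hes1, Jag1, Notch1 and Notch2 in static and flow libraries, with a line joining the libraries of the same replicate number (6 pairs, linear axes). All 6 Hes1 lines slope upward from static to flow, 5 of the 6 Jag1 lines do, and the Notch1 and Notch2 lines slope upward in 3 of 6.

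The replicates fell into sets on the first principal component of all genes (34.4% of the variance), where replicates 1 to 3 of both conditions had lower scores than replicates 4 to 6. Hes1 was therefore also compared within each set. The difference was 0.70 (SE 0.11, adjusted p 0.123 by limma) within replicates 1 to 3 and 1.08 (SE 0.24, adjusted p 0.214) within replicates 4 to 6. With the block the adjusted p was 0.0399 and 0.00230, against 0.457% and 1.07% of genes called higher in the same fits. The difference between the sets, tested as an interaction, was 0.38 (SE 0.27, adjusted p 1.00 by limma), and with the block 0.38 (SE 0.14, adjusted p 0.955). For the other 5 tested members the interaction lay between -0.38 (Nrarp) and 0.27 (Notch3). In the main fit of the interaction, without the block, 0 genes of any kind were called, while 238 had an unadjusted p under 0.05. With the block 0.158% of genes were called. Without it, library weights gave 8 called genes and leaving out flow replicate 4 gave 34, with 0 members among them. Without the block the interaction intervals of all 6 tested members hold 0. With it that of Hes1 was 0.07 to 0.69, while its adjusted p over all genes missed the threshold.

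Hes1 was low in the siRNA experiment, at 3.66, 2.14, 3.14 and 2.83 TPM with Ift88 siRNA and 2.23, 1.66, 2.89 and 2.21 TPM with control siRNA. The groups overlapped, with 2 of the Ift88 siRNA libraries above every control library. The difference was 0.28 on the log2(TPM + 1) scale (SE 0.16, 95% interval -0.07 to 0.63, adjusted p 0.458 by limma). Jag1 and Hes1 thus had estimates of opposite sign in this comparison, of which that of Jag1 passed the test.

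Nrarp encodes an ankyrin-repeat protein that is induced by Notch and dampens it. It ran from 0.999 to 2.42 TPM under flow (median 1.15) and from 1.11 to 2.10 TPM in static cells (median 1.70), with static higher in 4 of the 6 pairs. The groups overlapped, with a difference of -0.14 on the log2(TPM + 1) scale (SE 0.15, 95% interval -0.47 to 0.18, adjusted p 0.998 by limma). Among the siRNA libraries it measured 0.276, 0.475, 0.465 and 0.333 TPM with Ift88 siRNA and 0.403, 0.190, 0.157 and 0.323 TPM with control siRNA. Hes1 and Nrarp, both direct targets, therefore had estimates of opposite sign under flow. Whether their responses differ from each other was not tested.

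Hey1 and Heyl, repressors related to the Hes proteins, were near or at the lowest values of the tables. Hey1 ran from 0.0893 to 0.288 TPM under flow and from 0.0618 to 0.215 TPM in static cells, and was listed at 0 in 1 of the 4 Ift88 siRNA libraries and 2 of the 4 control libraries. Its highest siRNA value was 0.279 TPM, in control replicate 3. Heyl was listed at 0 in every control library and at 0, 0.0293, 0.0286 and 0.0204 TPM in the Ift88 siRNA libraries, the group in which more genes were detected. Without the minimum, Jag2, Dll1 and Hey1 could be fitted under flow, with differences between -0.10 and 0.03 and an adjusted p of 1.00 by limma. The corresponding 6 members in the siRNA table had differences between -0.15 and 0.35 and adjusted p between 0.499 and 0.977.

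**Figure D4:**
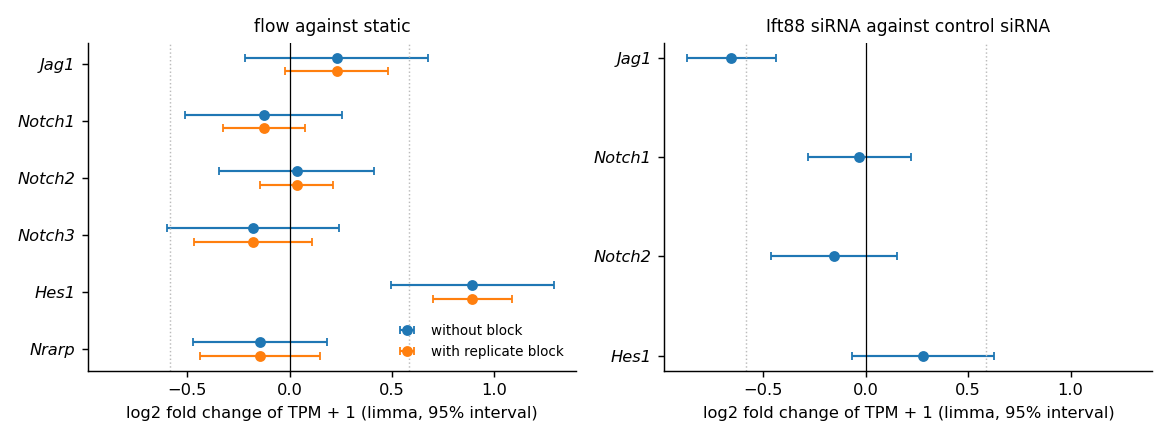
Difference in log2(TPM + 1) of each tested member with its 95% interval from limma, for flow minus static (6 members, without and with the replicate block) and Ift88 siRNA minus control siRNA (4 members); the solid line marks 0 and the dotted lines a 1.5-fold change. Hes1 under flow (0.89) and Jag1 with Ift88 siRNA (-0.66) are the estimates whose intervals leave out 0.

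A further 70 genes of the pathway were examined in 8 lists. Under flow 58 were tested, and 0 were called without the block, against 0.105% of all genes tested. Of the 58, 4 had an unadjusted p under 0.05, a level that 3.85% of all genes tested reached. Their median difference was -0.0069 on the log2(TPM + 1) scale, beside -0.026 over all genes, with 27 estimates above 0 and 31 below. In static cells Adam10, the protease that cuts ligand-bound receptors, was at 71.0 ± 7.55 TPM and Rbpj at 35.3 ± 5.37 TPM (SD, n = 6). All 9 sheddase and gamma-secretase genes and all 21 genes of the nuclear complex and its co-repressors met the minimum, and their median differences were -0.033 and -0.0033.

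The largest differences under flow among these genes were in the list of other genes described as Notch targets, where 9 of 10 estimates were above 0 (median 0.16). Over all genes 38.8% of estimates were above 0, and 50.8% after median-of-ratios scaling. Myc, a growth-promoting transcription factor, ran from 85.4 to 231.1 TPM under flow (median 194.6) and from 79.3 to 99.2 TPM in static cells (median 88.0). The groups overlapped, and the difference was 0.94 (SE 0.20, adjusted p 0.0966 by limma, 0.0190 with the block, where Myc was called). Sox9, a transcription factor of progenitor cells, ran from 14.2 to 38.9 TPM under flow (median 15.9) and from 7.05 to 11.3 TPM in static cells (median 9.48). Its groups did not overlap, as in 0.492% of all genes in this direction, and the difference was 1.02 (SE 0.22, adjusted p 0.107, 0.0913 with the block). Cdkn1a, a cell cycle inhibitor, differed by 0.32 (SE 0.10, adjusted p 0.680 by limma). Without flow replicate 2 both Myc (adjusted p 0.000220) and Sox9 (0.0422) were called by limma, and within replicates 4 to 6 alone Myc was called (adjusted p 0.00386), against 0.448% of genes called higher. Myc and Sox9 respond to many signals besides Notch. The study names Myc among its genes changed by shear stress. In the other Hes and Hey family genes only Hes6 met the minimum, at -0.27 under flow (SE 0.14, adjusted p 0.998 by limma).

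With Ift88 siRNA, 56 of the 70 genes were tested and 0 were called, against 0.223% of all genes tested. Their median difference was 0.05, beside 0.02 over all genes. One gene had an adjusted p under 0.05 with a change under 1.5-fold, against 0.633% of all genes at that level and 0.455% in the higher direction. This was Ncstn, a subunit of gamma-secretase, with 148.1 to 163.4 TPM in the Ift88 siRNA libraries and 120.5 to 128.8 TPM in the control libraries. The groups did not overlap, as in 5.79% of all genes in this direction, and the difference was 0.28 (SE 0.06, adjusted p 0.0485 by limma). With any 1 of the 8 libraries left out its adjusted p was between 0.0670 and 0.169. Lfng, a glycosyltransferase that modifies Notch receptors, differed by 0.27 (SE 0.07, adjusted p 0.12), and Ccnd1, a cyclin that drives entry into the cell cycle, by -0.17 (SE 0.05, adjusted p 0.191). Of the 9 sheddase and gamma-secretase genes 8 had estimates above 0, with a median of 0.05. Over all genes 55% of estimates were above 0 in this comparison, and 48.6% after median-of-ratios scaling.

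**Figure D5:**
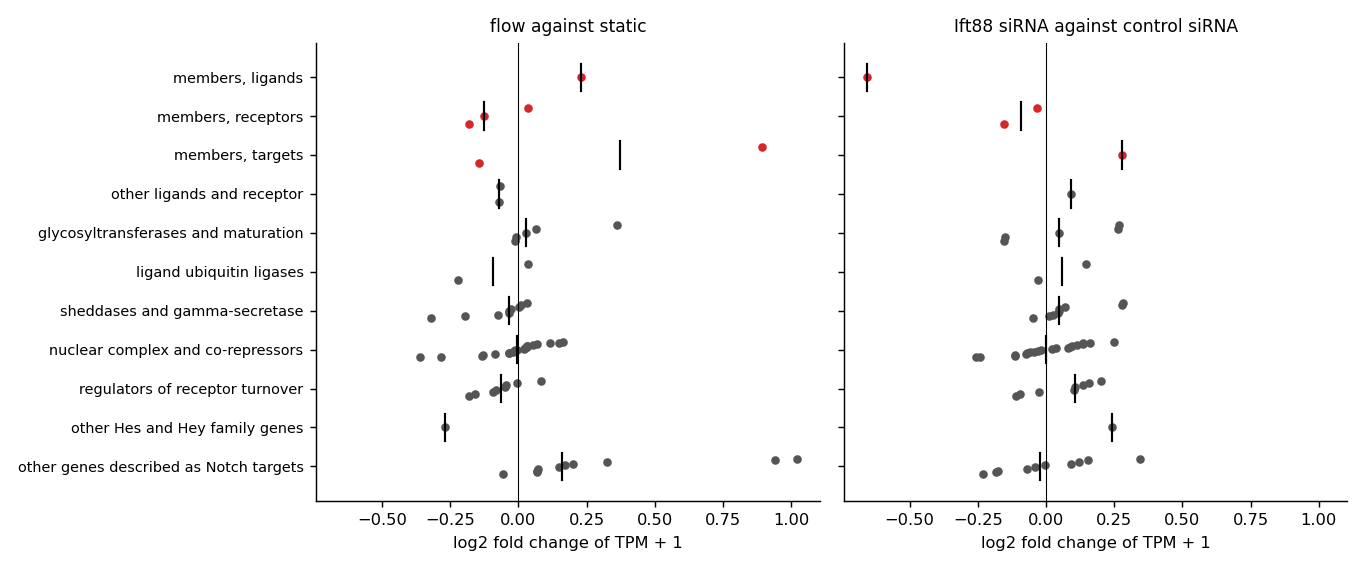
Difference in log2(TPM + 1) of each tested pathway gene by list, for flow minus static and for Ift88 siRNA minus control siRNA; points are genes and black bars the list medians. Most genes lie near 0 in both comparisons, with Myc (0.94), Sox9 (1.02) and Hes1 (0.89) farthest to the right under flow and Jag1 (-0.66) farthest to the left with Ift88 siRNA.

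Genes whose log2(TPM + 1) varied most like that of Jag1 over the 12 flow and static libraries were Sh3bp4 (Pearson r 0.976), Ntn4 (0.958), Vps13a (0.953), Raph1 (0.952) and Gli3 (0.949). Those most like Hes1 were Fosb (r 0.951), Ier3 (0.938), Irf2bp2 (0.938), Zfp36l1 (0.935) and Arid5b (0.933). Fosb and Ier3 are known as immediate early genes, which cells switch on quickly after a stimulus. Over the 8 siRNA libraries, the genes most like Jag1 were Wnt5a (r 0.984), Cflar (0.984), Slco3a1 (0.963), Lef1 (0.962) and Ppie (0.958), and those most like Hes1 were Faim (r 0.972), Neurl2 (0.951), Chst14 (0.947), St3gal3 (0.946) and Prcc (0.937). These values describe likeness over few libraries that share their groups and replicate numbers. The flow and siRNA sets hold different genes for Jag1 and for Hes1.

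The labelled cell type was checked by its markers. Aqp9, a water channel that marks principal cells, had group means of 0.168 to 0.279 TPM. Of 5 epithelial markers, Krt18 (group means 47.7 to 144.7 TPM) and Krt19 (6.47 to 15.9 TPM) reached 1 TPM in every group and Cdh1 (0.765 to 1.16 TPM) in the Ift88 siRNA group. Krt8 (0.420 to 0.536 TPM) and Epcam (at most 0.117 TPM) did not. Of 6 macrophage markers only Cd68 reached a group mean of 1 TPM, with 10.1 to 64.0 TPM in flow and static libraries and 87.1 to 98.9 TPM in siRNA libraries. Of 4 basal cell markers 1 reached it, summed fibroblast markers ran from 1.76 to 4.91 TPM under flow and from 2.02 to 5.90 TPM in static cells, and the summed TPM of the 4 clear cell markers was at most 0.873 in any library. Summed smooth muscle markers ran from 2.24 to 11.7 TPM under flow and from 3.36 to 9.28 TPM in static cells, and summed endothelial markers were at most 1.94 TPM. The study's methods speak of experimental replicates of the flow and static conditions, and the labels do not say whether libraries came from separate cultures. The p-values measure the spread between these libraries, which may be technical.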

How the data were processed

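RNA-seq of 20 libraries of DC2 cells was used, as 2 tables. The study's methods describe directional libraries of poly(A) RNA read in pairs. The authors used kallisto with the mouse transcriptome of Ensembl 110, tximport to go from transcripts to genes, and DESeq2 for their tests. The submitters' processing notes list fastp 0.20.0, FastQC 0.11.8, MultiQC 1.8 and kallisto 0.46.2, while the methods name Trimmomatic for trimming. The values the authors deposited are TPM. They are not counts and keep no depth, so counting errors are unknown.

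Here, limma 3.58.1 (R 4.3.3, lmFit and eBayes with trend) was run on log2(TPM + 1) of the genes whose table mean reached 1 TPM. P-values were Benjamini-Hochberg adjusted over all of them, and genes were called at an adjusted p under 0.05 and a change over 1.5-fold. These main fits held no block for the replicate number, as the study states none. Their p-values therefore take no account of pairing, and fits with the block are given as an alternative. The log2(TPM + 1) scale understates the change of low genes. Positions are from GENCODE M21 (GRCm38), an older build than the authors' annotation. Tables and plots were made in Python 3.11.15 with matplotlib 3.10.9, numpy 2.4.6 and pandas 2.3.3.

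Correlations of the deviations of same-numbered flow and static libraries from their group means, over genes, were 0.294, 0.463, 0.425, 0.468, 0.662 and 0.600 in the order of the numbers, each above 0.1, and the numbers were treated as pairs. The highest correlation with a library of another number was 0.263, 0.202, 0.509, 0.0632, 0.0932 and 0.197 in the same order. Alternatives covered the filter, the pseudocount, scaling between libraries, library weights, the replicate block, each library left out, the fold threshold, replicate sets and the label of flow replicate 6. The members and lists were chosen with earlier results of these data known. All members are named, and other pathway genes where called or among the 3 smallest p-values of a comparison, besides Adam10, Rbpj and Hes6, which were added after their values were seen. The genes most like Jag1 and Hes1 are the 5 tested genes with the highest Pearson r. Columns of both tables were all assigned to samples. One marker gene is not reported here.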

Additional observations from a re-analysis of the deposited data

Results flagged for a closer look

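In 6 of the 37 groups of values examined, 1 library stood far from the others of its group, with a gap to the nearest library that exceeded the 95% critical value of Dixon's test for that group size. Chance marks about 1 in 20 groups, and the genes share libraries.

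Under flow, Jag1 was at 7.66 TPM in replicate 5, above the next library at 4.09 TPM. The static library of the same number held 13.3 TPM of Hes1, against 8.52 TPM in the next library. Replicate 5 was the highest of both groups for 4 of the 4 abundant members, Jag1, Notch1, Notch2 and Hes1. Without static replicate 5 the Hes1 difference between flow and static was 1.01 on the log2(TPM + 1) scale, with an adjusted p of 0.0537 by limma.

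Static replicate 6 was the highest library for both scarce ligands. Jag2 was at 2.30 TPM there against 0.942 TPM in the next static library, and Dll1 at 0.929 TPM against 0.284 TPM. Of the flow and static libraries, this one also had the most genes above 0, at 16562. In the siRNA experiment Jag1 was at 41.2 TPM in Ift88 siRNA replicate 3, against 33.1 TPM in the next library of that group, and still below the lowest control library at 49.6 TPM. Notch3 was at 0.0156 TPM in control siRNA replicate 1, against 0.0881 TPM in the next, where both values are near the lower end of the table. The causes of these values were not tested.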

How the results depend on the processing

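For single genes, 434 values were recomputed under alternatives. Of these, 386 kept their direction and their side of the threshold, 30 changed sign, 15 gained significance and 3 lost it. Depth is unknown, so the counting error of the scarce members is unknown too. Scarce genes filtered out at a minimum of 5 TPM have no value there.

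Under flow, 1 member (Hes1) was called with median-of-ratios scaling (adjusted p 0.0318 by limma), with library weights (0.00523) and with the replicate block (0.00135). It was also the 1 member called within replicates 1 to 3 and within replicates 4 to 6 with the block, 2 alternatives that were chosen after seeing the data. Leaving out a library gave 0 to 1 members called, with 1 only without flow replicate 2. The Hes1 difference was then 0.75 to 1.01 and its adjusted p 0.0357 to 0.257. Other pathway genes called under flow numbered 2 (Myc and Sox9) with library weights, 1 (Myc) with the block, 1 (Myc) within replicates 4 to 6, 2 (Myc and Sox9) within replicates 4 to 6 with the block, and 0 to 2 with a library left out. With Ift88 siRNA, members called fell to 0 with no minimum (Jag1, difference -0.66 as before, adjusted p 0.0883) and were 0 to 1 with a library left out, 0 without Ift88 siRNA replicate 2 or control replicate 1. Without the fold threshold 1 other pathway gene (Ncstn) was called. The cause of each change was not tested, except where fewer samples enter by construction.

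Several small differences changed sign. Under flow these were Notch2 with flow replicate 6 as static (-0.055; -0.075 to 0.13 with a library left out) and Nrarp within replicates 1 to 3 (0.046 with and without the block). With Ift88 siRNA it was Notch1 with library weights (0.023; -0.099 to 0.029 with a library left out). For the difference between the replicate sets these were Jag1 with median-of-ratios scaling (0.042) and with flow replicate 6 as static (0.14), Notch1 with library weights (0.011) and with flow replicate 6 as static (0.16), and Notch2 with median-of-ratios scaling (0.050) and library weights (0.063). With a library left out they ran from -0.27 to 0.15 for Jag1, -0.40 to 0.11 for Notch1 and -0.17 to 0.13 for Notch2. None of these was called in any of the fits named.

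The replicate numbers of the siRNA libraries were not taken as pairs, since the correlations of same-numbered libraries were 0.0464, 0.00276, 0.259 and 0.176. With a replicate block there, Jag1 remained called (adjusted p 0.00339) and Lfng had an adjusted p of 0.0479 with a change under 1.5-fold. The block changed no other call of a member.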
